A study of Saccharomyces cerevisiae with 9 samples.

Results

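The kinetochore is the protein assembly that ties a centromere to the microtubules of the spindle. The set examined held 36 subunit genes of budding yeast, chosen by name from 7 assemblies, and 33 of them were measured among the 5359 Saccharomyces cerevisiae probe sets tested, each by 1 probe set. SPC24 of the Ndc80 complex and ASK1 and SPC34 of the Dam1 complex were not analysed here. RNA came from cells of the SK1 strain, either wild type (WT) or mutant for the RNA methyltransferase gene IME4 (ime4-/-, below ime4). Cells grew vegetatively in rich medium (YPD; yeast extract, peptone, dextrose) or had spent 4 h in sporulation medium (SPO, 1% potassium acetate). There were 2 arrays of WT in YPD, 3 of WT in SPO, 2 of ime4 in YPD and 2 of ime4 in SPO. The labels number the samples of a group as replicates and do not say whether they came from separate cultures, so p-values measure only the spread between these samples, which may be technical. The labels used here did not give mating type, ploidy or the extent of the deletion.

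In a yeast kinetochore the nucleosome with the centromeric histone Cse4 lies on the DNA, and Mif2 binds it. The Ctf19 complex, the yeast counterpart of the constitutive centromere-associated network, joins this inner layer. The Mtw1 complex and Spc105 bridge it to the outer layer, where the rod-shaped Ndc80 complex grips the microtubule and the ring-forming Dam1 complex holds on to its end. The Ipl1 complex, built around the Aurora B kinase, releases wrong attachments. In meiotic prophase the outer layer is known to be taken down, and yeast then makes a longer NDC80 transcript that is poorly translated. The probe annotation does not tell transcript forms of a gene apart.

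The values are intensities per probe set, given here as log2. An array read the mRNA pool, so fewer cells with a transcript and less of it per cell cannot be told apart. Levels of different probe sets were not compared, only the change of each. A gene is said to have risen or fallen where limma's moderated test, adjusted by the Benjamini-Hochberg method over all tested probe sets, gave an adjusted p under 0.05. Of the 6772 probe sets in the platform annotation, 1413 matched no gene of the Saccharomyces cerevisiae gene table and were taken as those of another species. A gene no brighter than the 95th percentile of these 1413 sets was taken as at background. That level lay between 3.02 and 3.27 log2, and every measured member except CTF19 was above it on all 9 arrays. Replicate arrays correlated across the tested sets with r between 0.998 and 0.999. Among the members their median absolute difference was 0.0281 to 0.0892 log2.

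IME4 itself exceeded background on all 5 WT arrays and on 0 of the 4 arrays of the mutant; whether its probes lie in the deleted stretch is not given. The meiotic inducers IME1 and IME2 rose in SPO in both genotypes, by 3.64 and 3.30 log2 in WT and by 1.92 and 2.13 in ime4. NDT80, the activator of the meiotic divisions, did not pass the threshold in either genotype. The WT arrays held the transcripts of a cells and the ime4 arrays those of alpha cells. The summed intensity of HMRA1, MFA2 and STE2 was 2396 to 2826 in WT and 18.3 to 96.9 in ime4, and that of HMLALPHA1, STE3 and MF(ALPHA)1 was 66.4 to 101 in WT and 1110 to 4523 in ime4. MFA2 and STE2 are known to be silent in a/alpha diploids, the cells that sporulate. Every comparison of the genotypes below is therefore also one of mating-type patterns, and the effects of IME4 and of mating type cannot be told apart.

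The first question was how the subunit genes respond when cells leave rich medium for sporulation medium. In WT most of them rose modestly, and of the 7 assemblies the inner Ctf19 complex had the highest median. Of the 33 members, 25 rose (75.8%, against 46.9% of all tested sets) and 4 fell (12.1%, against 43.1%), while 4 did not pass. Counting both directions, 87.9% of the members passed, near the 90.0% of all tested sets. The median change was 0.53 log2, beside 0.05 for all tested sets. Of the 33 members 7 rose at least 2-fold (21.2%), near the 22.1% of all tested sets. DUO1 fell at least 2-fold, as did 21.1% of all tested sets. No member's WT arrays overlapped between the media where it passed the threshold. The share of all tested sets without such overlap was not counted, so nothing particular to the members is read from this.

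**Figure D1:**
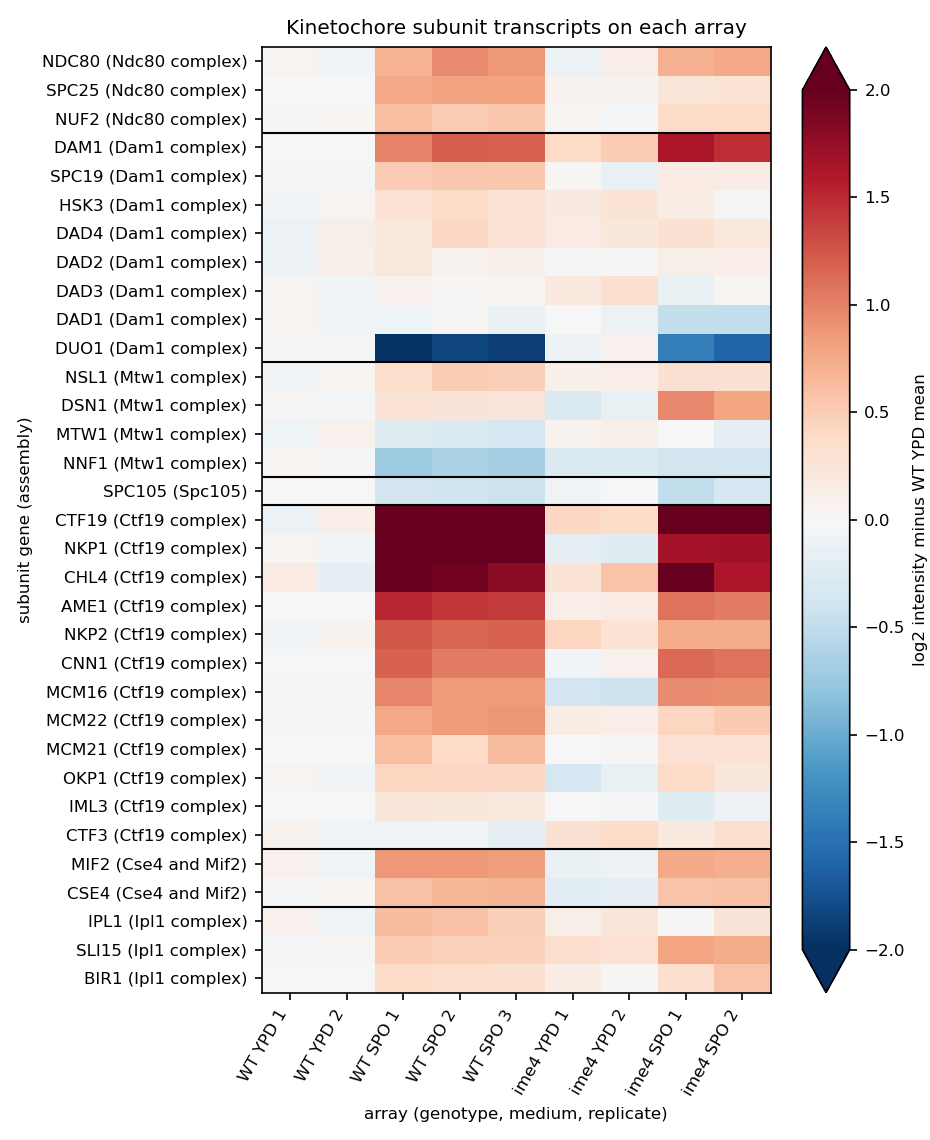
Log2 intensity of each of the 33 measured subunit genes on the 9 arrays (columns), as the difference from its mean over the 2 arrays of WT in YPD. Red is higher and blue lower, and colours end at 2 log2 on either side. The SPO columns are red for most rows of the Ctf19 complex and blue for DUO1 in both genotypes.

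The inner subunits held 6 of the 7 rises of at least 2-fold, a size reached by 22.1% of all tested sets. All 14 genes of the Ctf19 complex, CSE4 and MIF2 were measured. Of these 13 rose in WT (92.9%, against 46.9% of all tested sets) and none fell (against 43.1%), with a median of 0.87 log2. The measured changes ran from -0.11 for CTF3 to 2.15 for NKP1, and that of CTF19 is a lower bound because its YPD level was at background.

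CTF19 encodes a subunit that is dispensable for growth and helps bring cohesin to centromeres. It read 2.68 and 2.93 log2 in WT in YPD, at background, and 5.97, 6.09 and 6.2 in SPO. It was thus at least 7.18-fold higher in SPO (adjusted p = 3.62e-10 with limma), with no overlap. In ime4 it read 3.22 and 3.17 in YPD, again at background, and 6.02 and 6.21 in SPO, at least 7.57-fold higher (adjusted p = 3.29e-09). The SPO arrays of both genotypes overlapped.

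NKP1, which encodes a non-essential subunit of the same complex, stood at 7.25 and 7.15 in WT in YPD and at 9.30, 9.37 and 9.37 in SPO. That is a rise of 2.15 log2 (SE 0.0502, adjusted p = 9.73e-11), or 4.43-fold. In ime4 it went from 7.01 and 6.95 to 8.87 and 8.88, a rise of 1.89 (SE 0.055, adjusted p = 9.75e-10). All 5 SPO arrays lay above all 4 YPD arrays, and both ime4 arrays in SPO lay below all 3 WT arrays.

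CHL4, whose product binds Iml3 and is needed to build new kinetochores, was dim in YPD and varied more between replicates. It read 3.98 and 3.66 in WT in YPD and 5.97, 5.75 and 5.63 in SPO. It rose by 1.97 log2 (SE 0.162, adjusted p = 1.25e-06). In ime4 it went from 4.09 and 4.39 to 5.90 and 5.43, a rise of 1.42 (SE 0.178, adjusted p = 3.66e-05). With an intensity of 16 added to every value these rises were 1.24 and 0.94, and with quantile normalization the rise in ime4 was 0.82. The media did not overlap in either genotype.

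The Ctf19 complex is made of smaller stable groups, and partners within them did not change by equal amounts. In the group of Ctf19, Okp1, Mcm21 and Ame1, the essential AME1 rose by 1.44 log2 in WT and the essential OKP1 by 0.42, while MCM21 rose by 0.54. IML3, the partner of CHL4, rose by only 0.22. Among the interacting products of CTF3, MCM16 and MCM22, the genes MCM16 and MCM22 rose by 0.89 and 0.84, and CTF3 did not pass (-0.11, SE 0.0665, adjusted p = 0.148). CTF3 did pass as lower when each array was centred on its median (adjusted p = 0.00877) and with quantile normalization (adjusted p = 0.00538). NKP2, the partner of NKP1, rose by 1.19. CNN1, which encodes a second receptor for the Ndc80 complex, rose by 1.08 in WT and 1.09 in ime4. The centromeric histone gene CSE4 rose by 0.65 and 0.77, and MIF2, the counterpart of CENP-C, by 0.85 in both genotypes.

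The outer layer was less uniform. Of the 11 measured genes of the Ndc80 and Dam1 complexes 7 rose in WT (63.6%, against 46.9% of all tested sets). Of the others 1 fell (9.09%, against 43.1%) and 3 did not pass, and the median of the 11 was 0.32 log2. All 3 measured genes of the Ndc80 complex rose, beside 46.9% of all tested sets. NDC80 read 6.03 and 5.92 in YPD and 6.67, 6.92 and 6.84 in SPO in WT, and so rose by 0.84 log2 (SE 0.0895, adjusted p = 9.38e-06). NUF2, which pairs with NDC80 at the microtubule, rose by 0.55. SPC25, at the end that faces the centromere, rose by 0.79. In ime4 these 3 genes rose by 0.73, 0.38 and 0.19.

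The Dam1 complex split. DAM1 read 6.41 and 6.42 in WT in YPD and 7.41, 7.61 and 7.6 in SPO, higher by 1.12 log2 (SE 0.0764, adjusted p = 2.73e-07). DUO1, an essential subunit of the same ring, went the other way, from 8.47 and 8.43 to 6.48, 6.61 and 6.57. It fell by 1.89 log2 (SE 0.0813, adjusted p = 7.28e-09), or 3.72-fold. In ime4, DAM1 went from 6.81 and 6.93 to 8.05 and 7.89 and rose by 1.10, while DUO1 went from 8.35 and 8.54 to 7.09 and 6.85 and fell by 1.48. In both genotypes the arrays of the media did not overlap for either gene. SPC19 rose by 0.53, HSK3 by 0.32 and DAD4 by 0.30 in WT. The other small subunit genes DAD1, DAD2 and DAD3 gave changes between -0.06 and 0.13 that did not pass. The rise of DAD4 was lost without WT replicate 1 in YPD (0.176 log2, adjusted p = 0.0754), DAD2 passed without WT replicate 2 in YPD (0.232, adjusted p = 0.0108), and DAD1 passed as lower with median centring (adjusted p = 0.0259).

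The bridge between the layers, 4 genes of the Mtw1 complex and SPC105, held 3 of the 4 falls in WT. Of all tested sets 43.1% fell. Of the Mtw1 complex NSL1 and DSN1 rose in WT (0.45 and 0.26) and MTW1 (-0.28) and NNF1 fell. These are 50% each, beside 46.9% and 43.1% of all tested sets. NNF1 went from 6.10 and 6.02 in YPD to 5.34, 5.42 and 5.40 in SPO and fell by 0.68 log2 (SE 0.0467, adjusted p = 3.02e-07). SPC105, whose product is the scaffold of the spindle checkpoint, went from 7.48 and 7.45 to 7.09, 7.07 and 7.03, and in ime4 from 7.4 and 7.48 to 6.98 and 7.11. It fell by 0.40 in WT (adjusted p = 5.54e-05) and by 0.39 in ime4 (adjusted p = 0.000138). All 3 genes of the Ipl1 complex rose in WT, beside 46.9% of all tested sets. The kinase gene IPL1 rose by 0.56, SLI15, for its activating scaffold, by 0.48, and BIR1, for its survivin-like partner, by 0.35. The rise of IPL1 was smaller with quantile normalization (0.171, adjusted p = 0.0507).

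**Figure D2:**
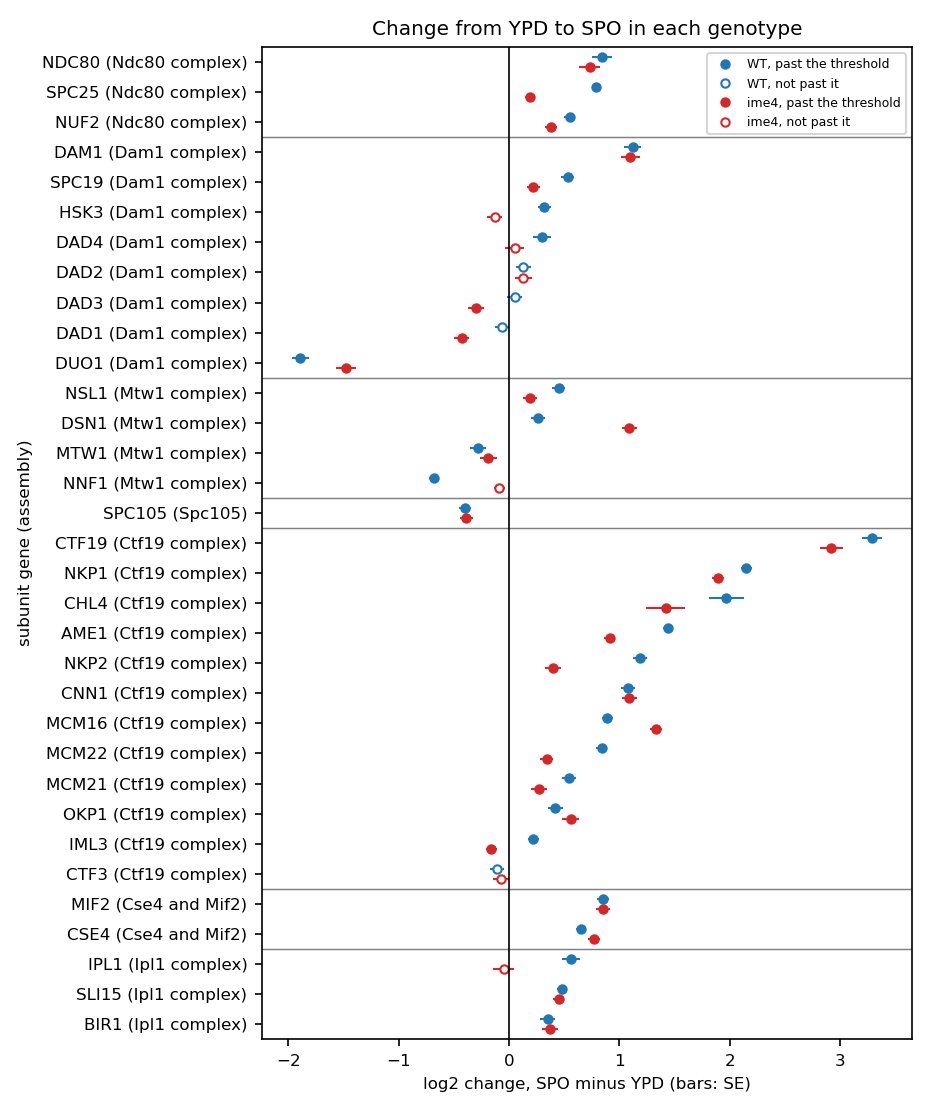
Change of each subunit gene from YPD to SPO on the log2 scale in WT (blue) and ime4 (red), grouped by assembly. Bars are standard errors and filled points passed the threshold. CTF19 lies highest, plotted at its fitted value although it was at background in YPD, while NKP1 lies at 2.15 in WT and DUO1 lies at -1.89 in WT and -1.48 in ime4.

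Set side by side, the median change of the Ndc80 and Dam1 genes was smaller than that of the inner genes by 0.555 log2 in WT (0.32 against 0.87). The SD of this gap over the ways to take 1 array per group was 0.13, and leaving out any 1 array gave gaps of -0.648 to -0.449. In ime4 the gap was -0.684 (0.13 against 0.81). The outer median was set mainly by the Dam1 complex. That of its 8 measured genes was 0.21 in WT, whereas that of the 3 Ndc80 complex genes was 0.79, beside 0.75 for CSE4 and MIF2. In ime4 these medians were -0.04, 0.38 and 0.81. The median of the Ctf19 complex was 0.98 in WT and 0.73 in ime4, where it lay below that of CSE4 and MIF2. At least 2-fold rises were seen for 6 of 14 inner genes and 1 of 11 outer genes in WT, beside 22.1% of all tested sets. In ime4 they were seen for 5 of 14 inner genes and 1 of 11 outer genes, beside 17.2%. Members are not replicates, so no test was made of these gaps.

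In ime4 cells, too, rises outnumbered falls, and CTF19, NKP1 and CHL4 again had the highest fitted rises. CHL4 did not keep this rank with quantile normalization (0.82), as MCM16 rose by 1.21 or more under every alternative. Of the 33 members, 21 rose (63.6%, against 44.0% of all tested sets) and 6 fell (18.2%, against 42.0%), with a median of 0.34 log2 beside 0.04; in both directions together 86.0% of all tested sets passed. With quantile normalization the counts were 19 and 10. At least 2-fold rises numbered 7 of 33 (17.2% of all tested sets), and the at least 2-fold fall was DUO1 (16.2%). The responses of both genotypes correlated across the 33 members with r = 0.913 (rho = 0.847), beside 0.927 over all tested sets, where the members share arrays and genes are not replicates. The 21 genes that rose in ime4 also rose in WT. The calls of 7 genes differed between the genotypes, which is not by itself a test of the difference. IML3 rose in WT and fell in ime4 (-0.16, adjusted p = 0.0157, lost without ime4 replicate 1 in YPD at 0.0833 and without ime4 replicate 1 in SPO at 0.118). DAD1 and DAD3 fell in ime4, by 0.43 and 0.30, and did not pass in WT. DAD1 read 8.63 and 8.50 in ime4 in YPD and 8.15 and 8.13 in SPO. HSK3, DAD4 and IPL1 rose in WT and did not pass in ime4. NNF1 fell in WT and did not pass in ime4 (-0.09, adjusted p = 0.116).

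Several ime4 calls moved with the scaling. With quantile normalization IPL1 passed as lower (-0.66, adjusted p = 3.56e-05, against -0.05 as deposited), as did NNF1 (-0.394, adjusted p = 0.00011), HSK3 (-0.203, adjusted p = 0.019) and CTF3 (-0.256, adjusted p = 0.00464), and NKP2 and NSL1 no longer passed (adjusted p = 0.136 and 0.821). Without 1 array, the ime4 call of SPC19 was lost without ime4 replicate 2 in YPD (0.136 log2, adjusted p = 0.0637), and the falls or rises of MTW1 and NSL1 were lost without ime4 replicate 1 in YPD (adjusted p = 0.0724 and 0.0697) or ime4 replicate 2 in SPO (0.275 and 0.053). MTW1 was also lost without ime4 replicate 2 in YPD (0.131) and WT replicate 2 in SPO (0.0502), and HSK3 passed as lower without ime4 replicate 1 in SPO (0.0429).

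Markers of dividing cells moved with the medium. Beside them, 46.9% of all tested sets rose and 43.1% fell in WT, and 44.0% and 42.0% in ime4. All 3 G1 markers (CLN1, CLN2 and PCL1) fell in both genotypes, and their summed intensity was 300.1 to 323.2 in WT in YPD against 88.5 to 102.7 in SPO, and 330.3 to 400.4 against 140.8 to 152.5 in ime4. Of the 5 measured markers of G2 and mitosis (CLB1, CLB2, CDC5, CDC20 and SWI5) all fell in WT, where the sum went from 787.5 to 797.6 down to 315.9 to 330.6. In ime4 4 of them fell, and the sum went from 649.4 to 664.5 down to 409.9 to 424.6. Of the 5 S phase markers (RNR1, POL30, HTA1, HTB1 and HHF1) 3 fell and 2 rose in each genotype. Their sum, which is mostly histone signal, stayed between 15390 and 16960 in all groups and hides falls of RNR1 and POL30. In WT, RNR1 went from 8.77 and 8.77 in YPD to 5.41, 5.38 and 5.27 in SPO, and POL30 from 9.99 and 9.99 to 7.35, 7.32 and 7.19. In ime4, RNR1 went from 8.49 and 8.47 to 5.51 and 5.68, and POL30 from 10.02 and 10.02 to 8.78 and 8.77. The part of these G1, S phase, G2 and mitosis markers in the changes of the subunit genes was not tested.

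The next question was where the genotypes differ. In SPO the differences were small: no member differed 2-fold, a size reached as higher in ime4 by 5.71% and as lower by 1.72% of all tested sets. Of the 33 members 7 were higher in ime4 (21.2%, against 34.1%) and 13 lower (39.4%, the same as the 39.4% of all tested sets), where 73.4% of all tested sets passed. The median was -0.11, beside -0.04 for all tested sets.

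**Figure D3:**
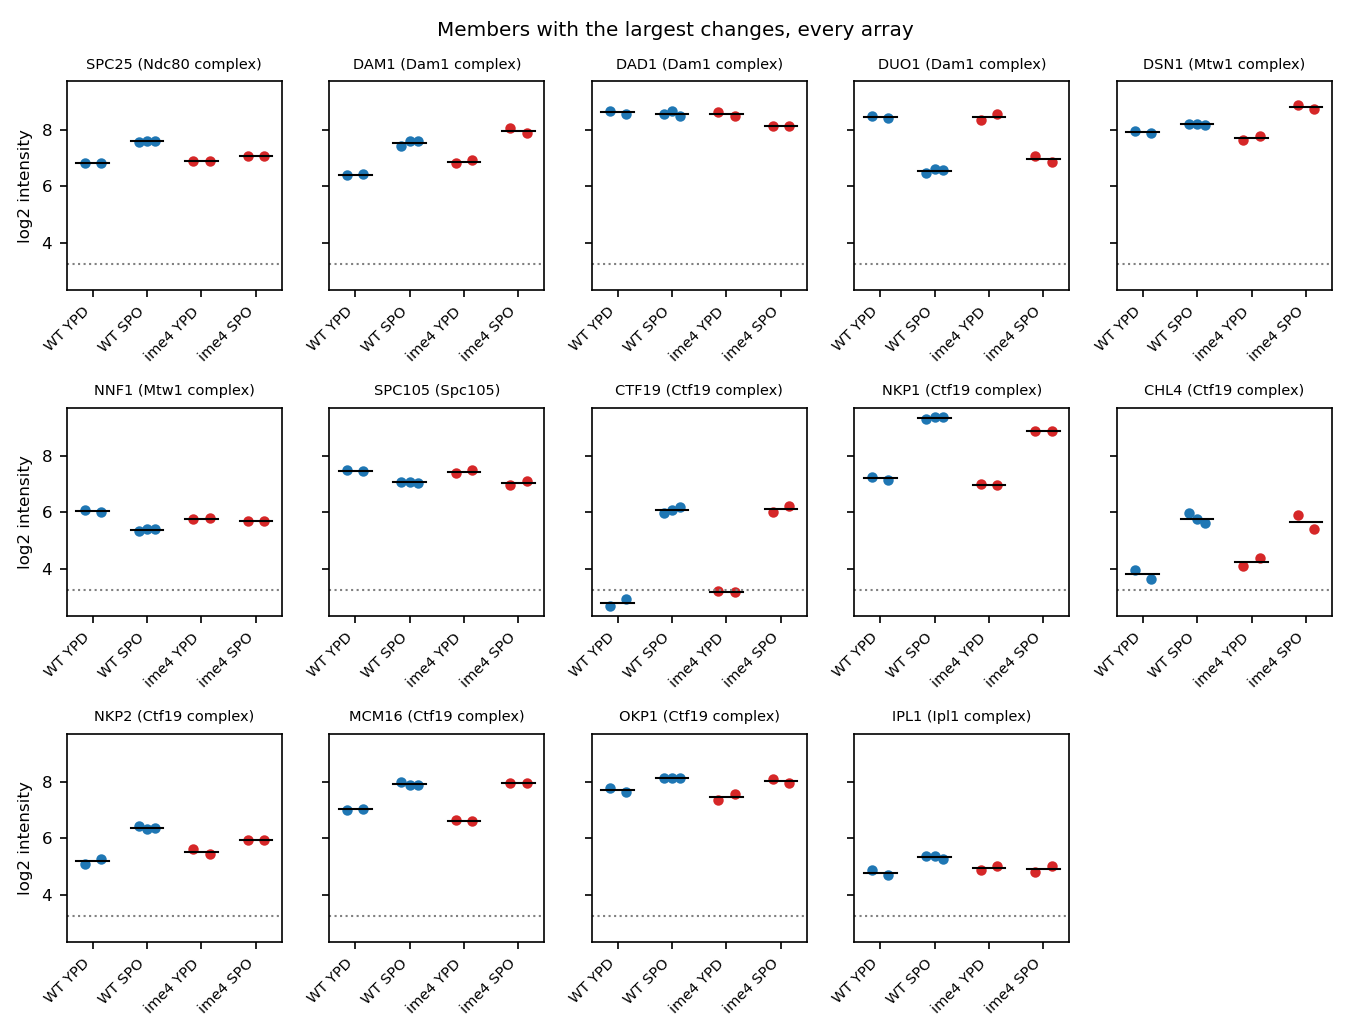
Log2 intensity on every array for the 14 members with the largest changes, with WT in blue, ime4 in red, group means as black bars and the highest background level as a dotted line. CTF19 lies at or under background on the 4 YPD arrays, and DSN1 is highest on the 2 arrays of ime4 in SPO.

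DSN1, which encodes the Mtw1 complex subunit that Aurora B phosphorylates, had the largest positive difference among the members. It read 8.20, 8.19 and 8.17 in WT and 8.88 and 8.72 in ime4 in SPO, higher by 0.61 log2 (SE 0.0632, adjusted p = 1.82e-05). In YPD it read 7.95 and 7.90 in WT and 7.63 and 7.78 in ime4, lower by 0.21 (adjusted p = 0.0353). That YPD call was lost without either WT array in YPD, WT replicate 2 or 3 in SPO, or ime4 replicate 1 in YPD, where it was -0.137 (adjusted p = 0.217). NNF1 read 5.69 and 5.68 in ime4 in SPO against the WT values given above, higher by 0.30 in SPO (adjusted p = 0.000306), or by 0.14 with quantile normalization. In YPD it read 5.77 and 5.79 in ime4 and was lower by 0.29 (adjusted p = 0.00213). The other genes of this complex, MTW1 (0.18, adjusted p = 0.0424) and NSL1 (-0.14, adjusted p = 0.0468), lay close to the threshold. With quantile normalization MTW1 did not differ past the threshold (adjusted p = 0.997).

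DAM1 was higher in ime4 in both media, by 0.43 in SPO (adjusted p = 0.000668) and 0.45 in YPD (adjusted p = 0.00263). So were CTF3, by 0.37 (0.23 with quantile normalization) and 0.33, and SLI15, by 0.28 and 0.31. DUO1 was higher by 0.41 in SPO (adjusted p = 0.00127) and did not differ past the threshold in YPD (log2 0.00, SE 0.089).

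SPC25 had the largest negative difference among the members in SPO. It read 7.58, 7.62 and 7.62 in WT and 7.06 and 7.09 in ime4 in SPO, lower by 0.53 log2 (SE 0.0409, adjusted p = 2.58e-06). In YPD the WT arrays read 6.82 and 6.81 and those of ime4 6.89 and 6.88, and it did not pass (adjusted p = 0.228). NKP1 was lower in SPO by 0.47 (adjusted p = 2.15e-05). NKP2 read 6.43, 6.33 and 6.37 in WT and 5.93 and 5.93 in ime4 and was lower by 0.45 (adjusted p = 0.000171). IML3, AME1, MCM22 and MCM21 were lower by 0.40, 0.38, 0.36 and 0.25. In the Dam1 complex DAD1, at 8.54, 8.65 and 8.49 in WT and 8.15 and 8.13 in ime4, was lower by 0.42, SPC19 by 0.37 and HSK3 by 0.22. IPL1 read 5.39, 5.37 and 5.26 in WT and 4.80 and 5.03 in ime4 and was lower by 0.42 (adjusted p = 0.0013), or by 0.70 with quantile normalization. NDC80, CTF19, CNN1, CHL4, CSE4 and MIF2 did not pass in SPO.

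Among the SPO calls, that of NUF2 (-0.17) was lost without ime4 replicate 1 in SPO (adjusted p = 0.0523), that of HSK3 without ime4 replicate 2 in SPO (0.0745), and those of MTW1 and NSL1 without any of 5 and 6 arrays (0.0563 to 0.362 and 0.0608 to 0.138). BIR1 passed as higher without ime4 replicate 1 in SPO (0.0145), and MIF2 as lower without either WT array in YPD (0.0363).

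**Figure D4:**
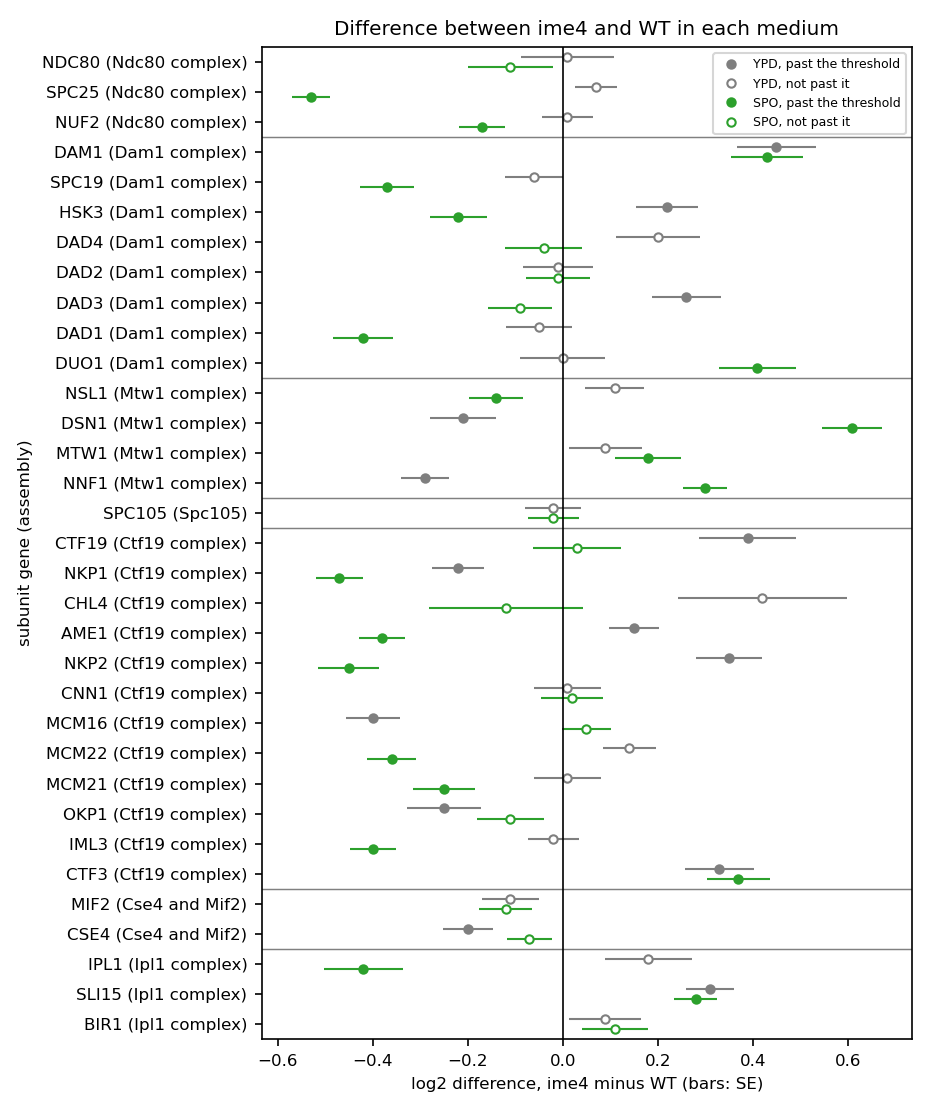
Difference of each subunit gene between ime4 and WT on the log2 scale in YPD (grey) and in SPO (green), grouped by assembly. Bars are standard errors and filled points passed the threshold. All values lie within -0.53 and 0.61, and DSN1 lies highest in SPO.

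In YPD the genotypes were closer. Of the 33 members 8 were higher in ime4 (24.2%, against 21.3% of all tested sets) and 6 lower (18.2%, against 18.7%), and the median was 0.01 beside 0.02. These shares are near those of all tested sets, of which 40.0% passed. No member differed 2-fold in YPD, a size reached as higher by 0.970% and as lower by 0.914% of all tested sets. The values ran from -0.40 for MCM16 to 0.45 for DAM1. MCM16 read 7.0 and 7.05 in WT and 6.64 and 6.61 in ime4, lower by 0.40 (SE 0.057, adjusted p = 0.000628). In SPO its arrays overlapped between the genotypes (8.0, 7.88 and 7.87 in WT, 7.97 and 7.95 in ime4). NKP2 read 5.11 and 5.26 in WT and 5.61 and 5.46 in ime4, higher by 0.35 (adjusted p = 0.00402). OKP1 read 7.77 and 7.65 in WT and 7.36 and 7.56 in ime4, lower by 0.25 (adjusted p = 0.0309), a call lost without WT replicate 1 in YPD (-0.186, adjusted p = 0.17) or ime4 replicate 1 in YPD (-0.154, adjusted p = 0.201). CTF19 passed as higher in ime4, but it was at background on all 4 arrays, so no difference in level is given.

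Many YPD calls depended on single arrays. Without WT replicate 1 in YPD the counts were 5 higher and 3 lower, without ime4 replicate 1 in YPD 3 were lower, and without ime4 replicate 2 in YPD 5 were higher. Of the 14 calls 6 were kept under every alternative that held the gene. They were those of DAM1, NKP2, CTF3, SLI15, MCM16 and NNF1.

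The test of the difference between the responses to SPO, the genotype by medium interaction, called 18 of the 33 members, beside 64.1% of all tested sets. The response was higher in ime4 for 4 (12.1%, against 29.5% of all tested sets) and lower for 14 (42.4%, against 34.6%), with a median of -0.18 log2 beside -0.05. No member's response differed 2-fold, against 6.59% of all tested sets higher and 3.40% lower. The largest were DSN1 (0.83, SE 0.0937, adjusted p = 5.56e-05) and NNF1 (0.58, SE 0.0692, adjusted p = 7.34e-05) upward, and NKP2 (-0.80, SE 0.0952, adjusted p = 7.75e-05), IPL1 (-0.61, SE 0.124, adjusted p = 0.00207) and SPC25 (-0.60, SE 0.0607, adjusted p = 2.71e-05) downward. Partners again parted. MCM16 responded more in ime4 (0.44, adjusted p = 0.0008) and MCM22 less (-0.50, adjusted p = 0.000349), while CTF3 did not differ past the threshold (0.04, SE 0.0986). The response of DUO1 was less negative in ime4 (0.42, adjusted p = 0.0137), a call lost without ime4 replicate 1 in YPD (0.0561) or in SPO (0.0504). That of NKP1 was lost without WT replicate 2 in YPD (0.0534) or ime4 replicate 1 in YPD (0.0528). Those of MCM21, CTF19 and NSL1 were lost without any 1 of 8, 6 and 6 of the arrays in turn. The outer and inner medians were alike here, at -0.24 and -0.26.

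Other genes of the kinetochore and spindle were read from lists chosen by function. A list of CBF3 genes and other centromere factors had 6 measured genes (CEP3, CTF13, SKP1, CBF1, SCM3 and PSH1). NDC10, also on this list, was not analysed here. Of the 6 genes 5 rose in WT (83.3%, against 46.9% of all tested sets) and 1 fell, with a median of 1.04. The CBF3 genes CEP3 and CTF13 rose by 1.47 and 1.29, and SCM3, the chaperone that loads Cse4, by 1.44. PSH1, for the ubiquitin ligase that removes misplaced Cse4, fell by 0.19. In ime4 3 rose (50%, near the 44.0% of all tested sets) and 2 fell (33.3%, against 42.0%). In SPO 5 of 6 were lower in ime4 (83.3%, against 39.4% of all tested sets), among them CEP3 (-0.52, adjusted p = 3.43e-06), SKP1 (-0.52), CTF13 (-0.48) and CBF1 (-0.39).

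Of the remaining subunits, KRE28, which pairs with Spc105, rose by 1.10 in WT and 0.47 in ime4, although SPC105 fell. NBL1, which encodes the borealin counterpart of the Ipl1 complex, rose by 2.02 in WT, and its response was lower in ime4 by 1.66 (adjusted p = 0.000279). It read 3.35 and 3.86 log2 in WT in YPD, close to background, so the size of both values is uncertain. Of 6 spindle checkpoint genes 5 rose in each genotype (83.3%, against 46.9% of all tested sets in WT and 44.0% in ime4), led in WT by MAD1 (0.92) and BUB3 (0.90). The BUB1 kinase gene did not pass (-0.01, SE 0.144).

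All 4 tubulin genes fell in WT, beside 43.1% of all tested sets. TUB1 fell by 0.44, TUB2 by 0.74, TUB3 by 1.07 and TUB4 by 0.86. In ime4 TUB1 rose by 0.81 instead, TUB3 and TUB4 fell, and TUB2 did not pass. All 4 were higher in ime4 than in WT in SPO, beside 34.1% of all tested sets, TUB1 by 1.31 (adjusted p = 3.33e-08). Of 9 measured microtubule binding proteins 5 fell in WT (55.6%, against 43.1% of all tested sets), including the polymerase gene STU2 (-1.43) and BIM1 (-0.85), for a plus-end protein. Only FIN1 rose, by 2.12 (11.1%, against 46.9% of all tested sets). The median was -0.4 log2, beside 0.05 for all tested sets.

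Of 6 genes that adapt the kinetochore to meiosis 2 rose (33.3%, against 46.9% of all tested sets) and 1 fell (16.7%, against 43.1%) in WT. Changes were no larger than 0.32 log2 among those that passed. HRR25 rose by 0.32 and LRS4 by 0.30, and SGO1, the protector of centromeric cohesion, fell by 0.27. In ime4 4 of them rose, beside 44.0% of all tested sets, MAM1 of the monopolin complex by 0.88 and SGO1 by 0.61. SPO13 passed as well in ime4, but it was at background on all 9 arrays, so no rise is read from it. In SPO SGO1, CSM1 and MAM1 were higher in ime4 by 0.80, 0.61 and 0.46. Of the 14 measured spindle pole body genes 6 rose and 4 fell in WT (42.9% and 28.6%, against 46.9% and 43.1% of all tested sets). CDC31 lay at one end (1.76) and SPC29 (-1.30) at the other. Of 9 cohesin genes 4 rose and 4 fell (44.4% each), near the 46.9% and 43.1% of all tested sets, with SCC4 up by 1.40 and the mitotic kleisin gene MCD1 down (-2.15). MCD1 was higher in ime4 than in WT in SPO by 1.15 (adjusted p = 6.29e-08), and PDS5 by 1.42.

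**Figure D5:**
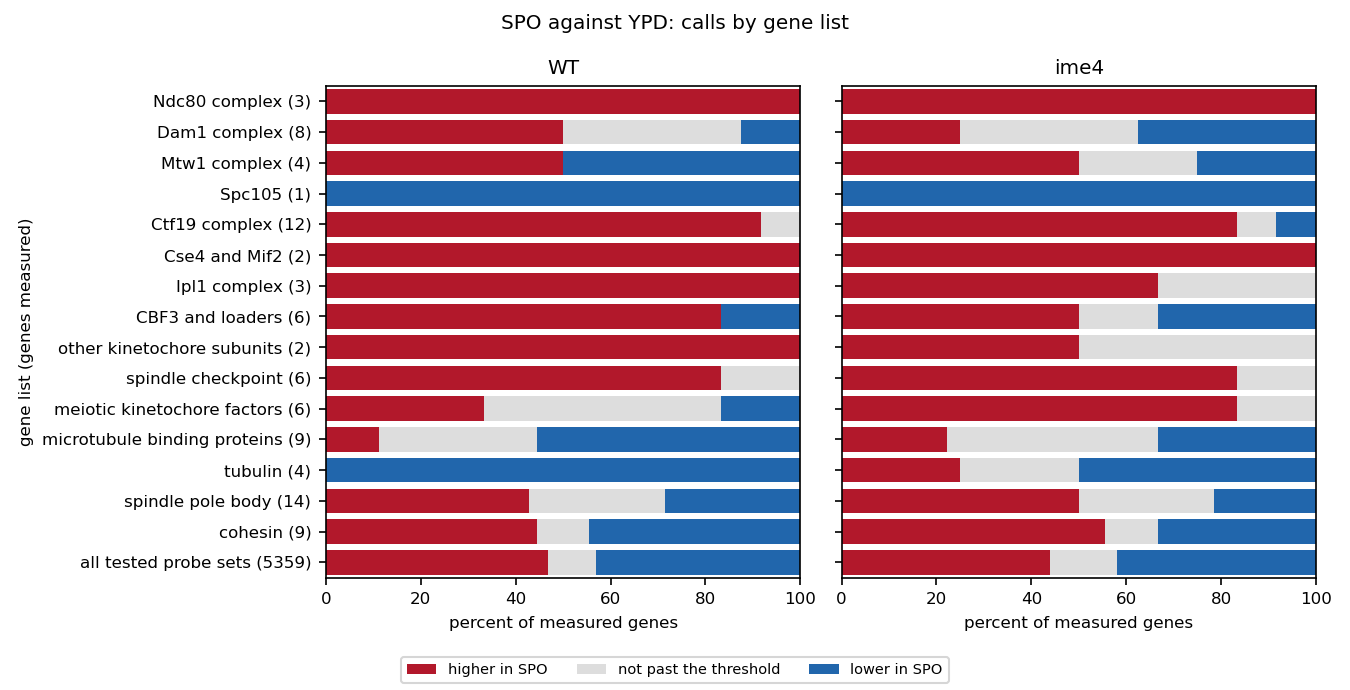
Percent of the measured genes of each list that rose (red), fell (blue) or did not pass the threshold (grey) from YPD to SPO, in WT at left and ime4 at right, with the number measured in brackets and SPO13, at background, counted as passing in ime4. All tested sets are the last bar, with 46.9% higher and 43.1% lower in WT, while all 4 tubulin genes are lower in WT.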

How the data were processed

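The deposited table holds intensities on a linear scale for 9676 probe sets on 9 arrays. Per the labels' protocols, biotinylated cDNA was made from 600 ng of total RNA. Per the submitters' processing notes the intensity values come from RMA, with no software or settings named. The median of the tested sets lay between 7.733 and 7.857 log2 on the arrays, and because arrays were scaled to one another, a rise or fall of total mRNA per cell is not measured. The log2 of each deposited value was taken with no offset. Probe sets were named through the platform annotation joined by gene identifier to RefSeq's gene table of assembly R64, which gave 5359 tested sets of 5311 genes. limma 3.58.1, run in R 4.3.3, fitted 1 model of group means over the 9 arrays (residual df 5, prior df 4.07), after the script was tested on simulated data. Tests were two-sided. The genes named were all members, with every array's value for the 3 largest changes per direction and comparison. Values of NDC80 were added after they had been seen. Of each other list the members with the smallest p were named, with a few others chosen after their values were seen. The members and lists were chosen with earlier results of these data known. The number of arrays limits the precision. Replicate numbers were not taken as pairs: the deviations of samples with the same number correlated with r from -0.02 to 0.021 between groups. Alternatives were quantile normalization, median centring, dropping the dimmest 25% of sets, an offset of 16, flooring at background, an intensity trend, a replicate block, fitting only the groups compared, and leaving out each array.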

Additional observations from a re-analysis of the deposited data

Results flagged for a closer look

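The response to sporulation medium differed between the genotypes for 18 of 33 members by the interaction test of limma (adjusted p under 0.05). That is 54.5% of the members, against 64.1% of all tested sets. Each difference is given as the log2 response in ime4 minus that in WT. Positive differences were found for DSN1 (0.83), NNF1 (0.58), MCM16 (0.44) and DUO1 (0.42). In the outer complexes negative differences were found for SPC25 (-0.60), HSK3 (-0.45), DAD1 (-0.37), DAD3 (-0.35) and SPC19 (-0.31). In the Mtw1 and Ipl1 complexes they were found for NSL1 (-0.25) and IPL1 (-0.61). In the Ctf19 complex they were found for NKP2 (-0.80), AME1 (-0.53), MCM22 (-0.50), IML3 (-0.39), CTF19 (-0.37), NKP1 (-0.26) and MCM21 (-0.26). CTF19 was at background in YPD, and with values floored at background its difference was 0.076 (adjusted p = 0.586). The differences of MCM21, NSL1, NKP1, DUO1 and CTF19 were lost without 1 array in some cases, for NKP1 without WT replicate 2 (adjusted p = 0.0534) or ime4 replicate 1 in YPD (0.0528), for MCM21 without any 1 of 8 arrays (0.0609 to 0.0984) and for NSL1 without any 1 of 6 (0.0521 to 0.0904). No group had the 4 samples needed to look for a sample far from the others.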

How the results depend on the processing

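Of the members called, those that kept their call under every alternative that held the gene were 27 of 29 for WT in SPO against YPD, 22 of 27 for ime4, 16 of 20 between the genotypes in SPO, 6 of 14 in YPD and 13 of 18 for the interaction. CTF19 reversed with values floored at background, in YPD between the genotypes (-0.05, adjusted p = 0.665) and for the interaction (0.076, adjusted p = 0.586), since its YPD values were at background. Median centring shifted all tested sets by -0.103 in WT, and quantile normalization by -0.124 in ime4. With quantile normalization 10 members fell in ime4 and the outer minus inner gap there was -0.734. Dropping the dimmest 25% left 21 members, of which 16 rose and 2 fell in WT, 13 rose in ime4, and 3 in SPO and 4 in YPD were higher in ime4. The gaps were then -0.76 in ime4, 0.093 between genotypes in SPO, 0.138 in YPD and -0.179 for the interaction, against 0.010, -0.004 and 0.016 for the last 3 as reported. The offset gave -0.636 in ime4, and flooring -0.114 for the interaction. The cause was not tested, except that dropping sets leaves fewer members.

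Leaving out single arrays gave gaps of -0.696 to -0.679 in ime4, -0.067 to 0.132 in SPO and -0.004 to 0.057 in YPD, and counts in YPD of 5 to 8 higher and 3 to 6 lower. Groups then left with 1 array were assumed to vary like the others. With the replicate number as a block, which in effect drops WT replicate 3 in SPO, counts of higher and lower members were 25 and 4 in WT, 21 and 5 in ime4, 6 and 12 in SPO, 7 and 4 in YPD, and 4 and 13 for the interaction. The numbers share only a label. Using the dimmer probe set of a gene was not run, as each member had 1. Fitting only the groups compared was not run for the interaction, which uses all groups.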
